A study of Mus musculus with 12 samples.

Results

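Translation initiation and elongation factors were taken by symbol from a gene table of C2C12, an established mouse myoblast line able to fuse into muscle fibres: every gene whose symbol starts with Eif or Eef. The rule found 67 symbols in 66 loci, out of 23123 symbols and 26271 loci in all. Names alone decided membership. Measured values entered only for the kinase gene Eif2ak2, which is listed in more than 1 locus and was read from the one with the higher summed value. The set was proposed with results of these data known, so its calls are described and not tested again. The rule also takes Eif2c1 to Eif2c4, older symbols of the Argonaute genes, whose proteins act in gene silencing by small RNAs and are not initiation factors. They are counted with the rest and described last.

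The cells had been grown for 24 h in DMEM. The high glucose medium held 25 mM glucose, the low glucose medium 5 mM glucose and the galactose medium 10 mM galactose. All 3 media held 1 mM sodium pyruvate, 10% fetal bovine serum and 1% penicillin/streptomycin. Each group has 4 libraries of polyA RNA, 12 over the series, and the labels do not say whether these came from separate cultures of the 1 cell line. The series' design text speaks of single muscle stem cells and of another culture time instead, and the sample labels were followed here.

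The authors' deposited table gives 1 pooled value per group and locus in FPKM, that is, fragments scaled to transcript length and sequencing depth, and a test of each pair of groups. It holds no value per library, so no SD or spread between libraries can be given here, and library depth is unknown. A locus was called where the authors' tool tested it and gave a q-value, its adjusted p-value, below 0.05. The lowest q in the table, 0.000239, is shared by 9204 of 44006 tests, and a called factor printed without a q had one between 0.000239 and 0.05. Each comparison shares its libraries with the other two, so the 3 are not independent of each other. Fewer cells of a kind and less RNA per cell cannot be told apart in such bulk samples. Of the fixed myoblast markers, Myod1 was listed at 154, 108 and 71.5 FPKM and Des at 456, 308 and 268 FPKM in high glucose, low glucose and galactose in the authors' deposited table. All 6 myoblast markers were found, and together they came to 749, 489 and 397 FPKM by the authors' deposited table. The 4 fibroblast markers summed to 54.7, 34.1 and 20.3 FPKM, nearly all of it Pdgfrb and with Thy1 at 0, by the authors' deposited table. Endothelial, adipocyte and epithelial markers stood at 0.524 FPKM or lower by the authors' deposited table. Both marker sums move with the media opposite to most factors, and their part in the results below was not tested.

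Protein synthesis starts when eIF2, a GTP-binding complex of 3 subunits, brings the initiator tRNA to the small ribosomal subunit, where eIF1, eIF1A, eIF3 and eIF5 help to find the start codon. The cap of the mRNA is bound by eIF4E, which joins the scaffold eIF4G and the helicase eIF4A. Cells slow initiation at 2 main points: kinases phosphorylate eIF2, which then blocks its exchange factor eIF2B, and eIF4E-binding proteins take eIF4E away from eIF4G unless the kinase mTORC1 phosphorylates them. In elongation, eEF1A delivers the charged tRNAs and eEF2 moves the ribosome along, until its kinase eEF2K inhibits it. Muscle cells differ from most in a second form of eEF1A, encoded by Eef1a2, which replaces the common form in mature fibres.

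Most of these genes stood higher outside high glucose, by small amounts. The authors' tool tested 62, 63 and 62 of the 66 factor loci in the 3 comparisons, and 62 of the 66 reached 1 FPKM in some group. In low glucose, 38 of 62 tested factor loci were called higher and 1 lower than in high glucose, where 18.3% and 18.2% of all 14699 tested loci were. In galactose, 41 of 63 were called higher and 3 lower than in high glucose, against 26.5% and 24.8% of all 14812 tested loci. From low glucose to galactose, 16 of 62 were called higher and 3 lower, against 17.4% and 16.0% of all 14495 tested loci. As shares of the tested factor loci, the higher calls came to 61.3%, 65.1% and 25.8%, and the lower calls to 1.61%, 4.76% and 4.84%. The median log2 fold changes of the tested factor loci were 0.23, 0.30 and 0.09 in the authors' deposited table, beside 0.0069, 0.0058 and 0.0101 for all tested loci. Called changes of at least 2-fold were few among the factors and among all tested loci. In low glucose 1 factor, Eif4ebp1, was called at least 2-fold higher than in high glucose, and in galactose 2 were, Eif4ebp1 and Eif3c. These are 1.61% and 3.17% of the tested factor loci, against 0.864% and 3.27% of all tested loci. From low glucose to galactose 0 factors were called at least 2-fold higher, against 1.69%. At least 2-fold lower, 0 factors were called in any comparison, against 2.45%, 5.16% and 1.17% of all tested loci. Counts this small are no result about the factors. The lowest log2 fold change of a factor was -0.74, whatever its p.

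**Figure D1:**
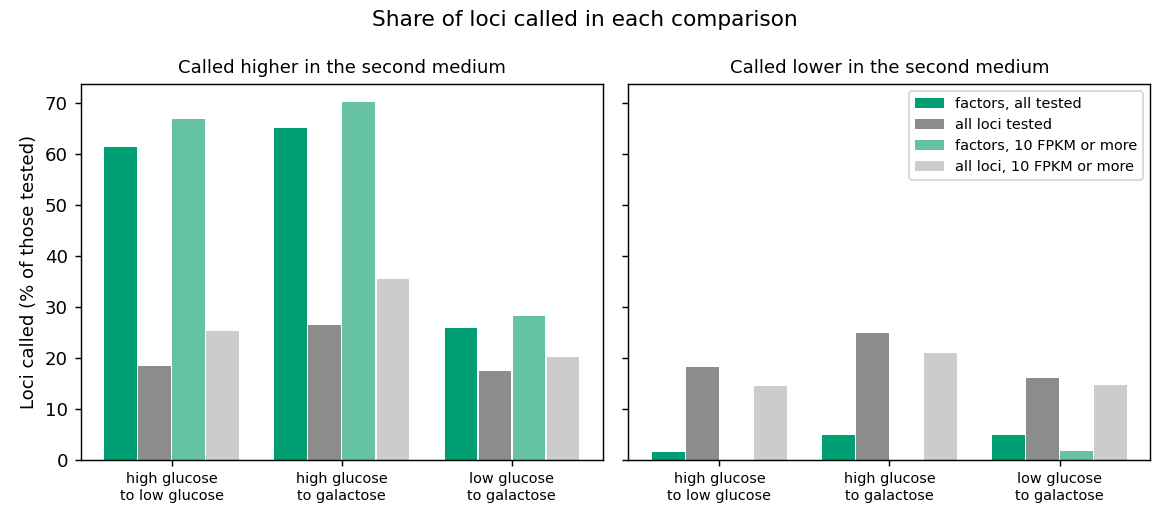
Share of tested loci called higher (left) or lower (right) in the second medium of each comparison, in percent, for the factor loci (green) and for all loci (grey), with and without a minimum of 10 FPKM in the larger group value. The factors' higher share lies above that of all loci in the comparisons with high glucose, at 61.3% against 18.3% and 65.1% against 26.5%, and nearer to it from low glucose to galactose, at 25.8% against 17.4%.

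Factor genes are expressed above the average gene, which bears on how these shares compare. At least 10 FPKM in some group was listed for 58 of the 66 loci, and at least 100 FPKM for 24. Among loci whose larger group value was at least 10 FPKM, a limit added later with the values known, 38 of 57 factor loci were called higher in low glucose and 40 of 57 in galactose than in high glucose, and 16 of 57 from low glucose to galactose. All loci above that limit were called higher in 25.3%, 35.4% and 20.1% of cases. Above it no factor was called lower in either comparison with high glucose, where 14.4% and 20.9% of all loci were, and 1 of 57, Eif2s3x, from low glucose to galactose, where 14.6% were.

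The scale of the values matters for changes this small. Summed over the loci with a value in every group, FPKM came to 546312 for high glucose, 582498 for low glucose and 615266.5 for galactose by the authors' deposited table. Scaling the groups to equal sums, a check added later with the values known, lowers every log2 fold change by 0.09, 0.17 and 0.08 in turn. On the deposited scale 58 of 62, 57 of 63 and 46 of 62 tested factor loci had a log2 fold change above 0, and on the equal-sum scale 47, 43 and 32. The factors' median became 0.14, 0.13 and 0.0091, and that of all tested loci -0.09, -0.17 and -0.07. The calls rest on the deposited q and were not tested again on this scale, where some called factors lie close to 0. From high glucose to galactose, Eef2 came to 0.0108, Eif1ax to 0.0187, Eif4a3 to 0.0199 and Eif2s3x to 0.0324 on the log2 scale.

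**Figure D2:**
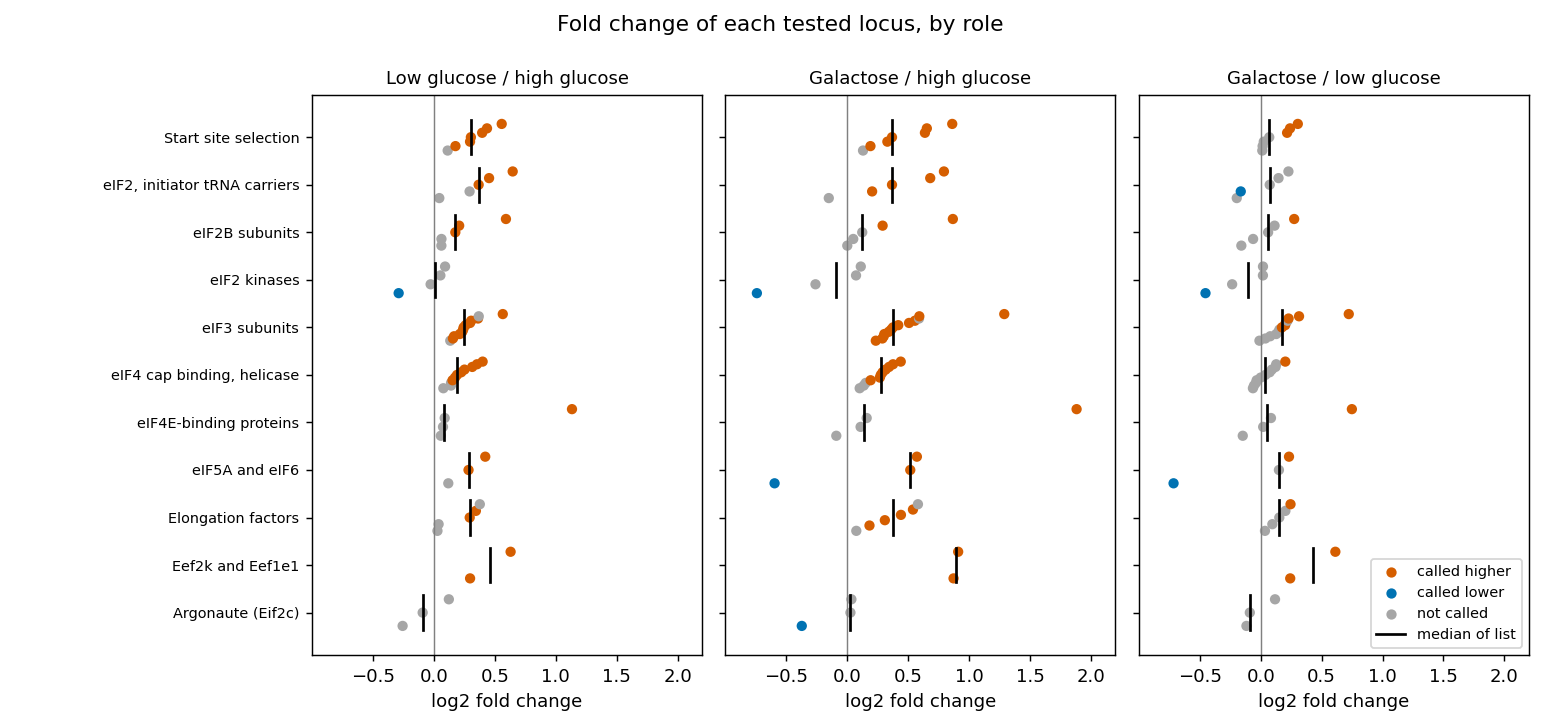
Points are single tested loci; the x axis is the log2 fold change as deposited by the authors, each row is a role and each panel a comparison. Colour gives the call and a black bar the row's median. The eIF2 kinases, with medians of 0.01 and -0.09 against high glucose, lie left of most other rows.

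Of 7 loci listed under start site selection, 6 were called higher in low glucose and 6 in galactose than in high glucose. The shares of all tested loci called higher were 18.3% and 26.5%. The medians of the 7 were 0.30 and 0.37 on the log2 scale. Eif1, whose product guards the choice of the start codon, was listed at 217, 293 and 341 FPKM in high glucose, low glucose and galactose in the authors' deposited table. Eif5, which makes eIF2 hydrolyse its GTP once the codon is found, stood at 52.3, 68.8 and 81.3 FPKM by the authors' deposited table. Both stood lowest in high glucose and highest in galactose, and each of the 3 steps was called. Eif1ad, which encodes a protein with an eIF1A-like domain, had the largest fold changes of this set, with log2 values of 0.56 in low glucose and 0.86 in galactose over 32.5 FPKM in high glucose in the authors' deposited table. Its locus overlaps Banf1, whose part in these values was not tested. The eIF1A genes differed in level: Eif1ax stood at 122, 138 and 139 FPKM and its relative Eif1a at 39.9, 49.0 and 51.5 FPKM by the authors' deposited table. Their q-values from high to low glucose were 0.0492 and 0.000456 in the authors' deposited table, so the Eif1ax call lay just inside the threshold, and it is lost (0.0546) when p is adjusted within that comparison alone. Eif5b, which joins the ribosomal subunits, had log2 fold changes over high glucose of 0.30 and 0.33 by the authors' deposited table. Eif1b, a close relative of Eif1, was the one not called, at 46.0, 49.8 and 50.4 FPKM by the authors' deposited table. From low glucose to galactose, 3 of 7 were called higher, Eif1, Eif5 and Eif1ad, beside 17.4% of all tested loci. The median of that step, 0.07, became -0.0087 on the equal-sum scale.

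The 3 expressed subunit genes of eIF2 itself were called higher in both media than in high glucose, where 18.3% and 26.5% of all tested loci were. Eif2s1, the alpha subunit that carries the phosphorylation site, was listed at 40.0, 54.7 and 64.1 FPKM by the authors' deposited table. Its locus is 45.6 kb long, against 24.9 kb in RefSeq, and overlaps Atp6v1d, whose part in this value was not tested. Eif2s2, the beta subunit, stood at 32.1, 50.3 and 55.7 FPKM by the authors' deposited table, log2 fold changes of 0.65 and 0.79 over high glucose. Eif2s3x, the X-linked gamma subunit that binds GTP and the tRNA, was listed at 12.2, 15.7 and 14.0 FPKM, with the step from low glucose to galactose called lower at q = 0.0464 in the authors' deposited table. That lower call is lost (0.0565) when p is adjusted within the comparison alone. In FPKM, alpha stood at 1.24, 1.09 and 1.15 times beta and at 3.29, 3.49 and 4.58 times gamma. The Y-linked Eif2s3y was listed at 0 in each group in the authors' deposited table and was not tested. Of the other carriers of initiator tRNA, Eif2a was called in galactose only against high glucose, at 20.5 and 26.4 FPKM with q = 0.0201, and had q = 0.0622 in low glucose in the authors' deposited table. Eif2d, at 14.8, 15.3 and 13.3 FPKM by the authors' deposited table, was not called in any comparison.

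Of the eIF2B subunits, which exchange GDP for GTP on eIF2, only some were called. Eif2b3, the gamma subunit, was listed at 22.03, 33.2 and 40.2 FPKM by the authors' deposited table, and each step was called. Its log2 fold changes over high glucose, 0.59 and 0.87, were more than those of its 4 partners, which lay from 0.06 to 0.21 in low glucose and from 6.004e-05 to 0.29 in galactose in the authors' deposited table. Eif2b5, the catalytic epsilon subunit, was called in both media at 39.3, 44.4 and 48.1 FPKM by the authors' deposited table. Eif2b1 was called in low glucose alone, with q = 0.0259 there and 0.673 in galactose in the authors' deposited table. Eif2b2 and Eif2b4 were not called. The Eif2b1 locus is 2.94 times as long as the RefSeq gene and also covers Ddx55. That of Eif2b4 is 5.91 times as long and covers 3 other coding genes, so these values may not be the subunits' alone. The median of the 5 subunits in galactose, 0.12, turned to -0.05 on the equal-sum scale.

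Of the 4 kinases that phosphorylate eIF2, 0 were called higher and 1 lower in each comparison. Of all tested loci, 18.3%, 26.5% and 17.4% were called higher and 18.2%, 24.8% and 16.0% lower. Beside these shares, counts of 0 and 1 in 4 are no result about the kinases as a set. Eif2ak3, which encodes PERK, the kinase of endoplasmic reticulum stress, fell at every step: it went from 6.76 FPKM in high glucose through 5.53 FPKM in low glucose to 4.04 FPKM in galactose, per the authors' deposited table. Its log2 fold change from high glucose to galactose was -0.74 in the authors' deposited table. Eif2ak4, which encodes GCN2, the kinase that senses uncharged tRNA, was not called at 6.08, 6.31 and 6.39 FPKM (q from 0.467 to 0.873) in the authors' deposited table. Eif2ak1, the haem-regulated kinase, had 16.2, 15.9 and 13.5 FPKM, with q = 0.0727 from high glucose to galactose in the authors' deposited table. Eif2ak2, which encodes the double-stranded RNA kinase PKR, was the most abundant at 130, 139 and 141 FPKM and was not called (q from 0.176 to 0.856) in the authors' deposited table. A further locus at the same coordinates under the symbol Eif2ak2 stood at 0.891, 0.986 and 1.012 FPKM by the authors' deposited table. On the equal-sum scale the kinases' median in low glucose went from 0.01 to -0.08. How much kinase protein was active cannot be read from these values.

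Most subunits of eIF3, the scaffold that holds the initiation complex together, rose, and 1 of them stood out. In low glucose 11 of 13 were called higher and in galactose 12 of 13, with medians of 0.24 and 0.38 on the log2 scale. Of all tested loci, 18.3% and 26.5% were called higher in low glucose and galactose than in high glucose. From low glucose to galactose 6 of 13 were called higher, beside 17.4% of all tested loci. The call of Eif3g in low glucose (q = 0.0464) is lost (0.0516) when p is adjusted within the comparison alone. Eif3c, a core subunit, was listed at 104, 154 and 254 FPKM by the authors' deposited table. Its log2 fold changes were 0.57, 1.29 and 0.72 from high to low glucose, high glucose to galactose and low glucose to galactose in the authors' deposited table. The other tested subunits lay from 0.23 to 0.59 in galactose against high glucose, so Eif3c was outside their range. In high glucose Eif3c was below its core partners, at 0.801 times the FPKM of Eif3a and 0.546 times that of Eif3b, and in galactose it was at 1.54 and 1.08 times theirs. The locus lies on chromosome 7 from 126545314 to 126568638 (mm10) and overlaps no other coding gene of RefSeq.

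Within eIF3 the levels fell into a high set and a few low ones. In high glucose, 10 of the 13 loci lay between Eif3f at 100.5 FPKM and Eif3d at 193 FPKM by the authors' deposited table. Eif3d, which can itself bind the cap of some mRNAs, reached 274 FPKM in galactose in the authors' deposited table. Eif3e stood lower, at 30.2, 38.8 and 45.5 FPKM, and Eif3m at 15.5, 18.2 and 19.8 FPKM, and both were called in each comparison with high glucose in the authors' deposited table. The Eif3m locus is 137.9 kb long where RefSeq gives the gene 17.4 kb, and it also covers Ccdc73. Eif3k was called in galactose (q = 0.000239) and not in low glucose (q = 0.0944) in the authors' deposited table. The locus named Eif3j2 was the lowest, at 0.901, 1.16 and 1.35 FPKM, and was not called in the authors' deposited table. It lies on chromosome 2, where RefSeq places Eif3j1, the near copy of Eif3j2. Reads of this pair may have been split or lost, and the handling of reads with several matches is not given in the sources used here.

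The eIF4 group binds the cap and unwinds the leader of the mRNA. Of 11 tested loci, 8 were called higher in low glucose and 8 in galactose, with medians of 0.19 and 0.28. Beside them, 18.3% and 26.5% of all tested loci were called higher. From low glucose to galactose 1 of 11, Eif4g3, was called higher. With 17.4% of all tested loci called higher there, this count is no result about the group. The median of that step, 0.04, became -0.04 on the equal-sum scale. Eif4e, the cap-binding protein, went from 23.1 FPKM to 28.7 FPKM in both other media in the authors' deposited table. Its locus lies on chromosome 3 from 138526191 to 138557712 (mm10). Eif4a1, the main helicase, was listed at 72.7, 96.0 and 98.6 FPKM by the authors' deposited table. This locus also carries the symbol Cd68, a macrophage gene, and its value cannot be divided; Ptprc and Itgam, the other white blood cell markers found, stood at 0.00823 FPKM or lower in the authors' deposited table. Eif4g1, the main scaffold, was called in low glucose (q = 0.0178) and not in galactose (q = 0.102), at 212, 241 and 232 FPKM by the authors' deposited table. Eif4g2, a scaffold that lacks the site for eIF4E, and Eif4g3 were called in both, with log2 fold changes in galactose of 0.34 and 0.38 by the authors' deposited table. Of the helicase helpers, Eif4b was called in both media, at 136, 151 and 165 FPKM by the authors' deposited table. Its q in low glucose was 0.0496, and 0.0550 when adjusted within that comparison alone. Eif4h was called in neither (208, 230 and 223 FPKM, q = 0.0730 in low glucose) in the authors' deposited table. Their log2 fold changes in low glucose were close, 0.15 and 0.14 by the authors' deposited table. The difference between these 2 genes was not tested. Eif4a3, a helicase of the exon junction complex, and Eif4e3, a minor cap-binding form, were called in both media, with log2 fold changes in galactose of 0.19 and 0.29 in the authors' deposited table. Eif4e2, a cap-binding repressor, was called in galactose only (q = 0.000659), with q = 0.0918 in low glucose in the authors' deposited table. Eif4a2 was not called, and the oocyte form Eif4e1b was listed at 0 in each group in the authors' deposited table.

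Promoters of these factors were searched because so many of the genes stood higher together. RefSeq (GRCm38.p6) windows from 250 bases before to 50 after a start were found for 49 of the 67 symbols, 64 windows in all. The E-box CACGTG, a motif that reads the same on both strands and is bound by Myc and its relatives, was in 14 of the 64 windows, or 21.9%, beside 7.15% of all 32851 windows. By symbol, 12 of 49 (24.5%) had it, beside 8.09% of all 27025 symbols and 12.9% of the 5362 whose locus was tested in each comparison with at least 10 FPKM. Base composition was not matched in these shares, here or for the motifs below. The limits on level and tests were not applied to the 49 factor symbols, which include Eif5a2 at 4.56 FPKM or lower. Factor windows were kept only where they lay at the locus, a limit not applied to the windows of all symbols. The matches of Eif4e, Eif4a1, Eif4g1 and the eIF3 subunit Eif3f are shown because they span cap binding, unwinding and scaffolding. Each run of 30 bases is read 5′ to 3′ on the strand of the gene, with the motif nearest before the start in capitals. The Eif4e run is chr3:138527192-138527221 on the plus strand, before an inner start, and the Eif4a1 run chr11:69672595-69672624 on the minus strand. The Eif4g1 run is chr16:20672661-20672690 and the Eif3f run chr7:108934335-108934364, both on the plus strand.
Eif4e: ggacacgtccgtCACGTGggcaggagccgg
Eif4a1: cgatcgcctccgCACGTGtaaaggtgctgg
Eif4g1: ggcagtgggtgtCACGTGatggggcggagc
Eif3f: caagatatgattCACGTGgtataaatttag
The other symbols with the motif were Eef2, Eef2k, Eif1b, Eif3a, Eif3k, Eif4h, Eif5a and Eif5a2. They include Eif1b and Eif4h, which were not called, and Eif5a2, which was called lower in galactose. A match is a description of letters, and no binding was measured here.

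The C/EBP-ATF response element, searched as TGATGNAA on both strands, was in 3.12% of the 64 windows, those of Eef2k and Eif2s3x, beside 3.97% of all windows. By symbol it was 4.08%, beside 4.51% of all symbols and 2.46% of those with at least 10 FPKM. Both matches are shown because this element is bound by ATF4, the factor whose own mRNA is translated when eIF2 is phosphorylated. They lie on the strand opposite to the gene, so the capitals show the reverse complement of the searched letters. The Eef2k run is chr7:120851094-120851123 on the plus strand, before an inner start, and the Eif2s3x run chrX:94212729-94212758 on the minus strand.
Eef2k: ctttctgcttgTTTCATCAagctcagcttg
Eif2s3x: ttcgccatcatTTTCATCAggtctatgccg
The cAMP response element TGACGTCA, which also reads the same on both strands, was in 1.56% of the windows, that of Eef2, beside 1.79% of all, and by symbol in 2.04%, beside 2.03% of all and 3.79% of those with at least 10 FPKM. A start at a C followed by at least 4 pyrimidines, the mark of mRNAs whose translation depends on mTORC1, was in 3.12%, those of Eif2s3x and Eif3f, beside 2.51% of all, and by symbol in 4.08%, beside 3.01% and 3.21%. Each of these counts is of 1 or 2 windows. The runs of 15 bases either side of these starts have the start base and the pyrimidines after it in capitals. They are chrX:94212637-94212666 on the minus strand and chr7:108934400-108934429 on the plus strand.
Eif2s3x: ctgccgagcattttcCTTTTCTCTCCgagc
Eif3f: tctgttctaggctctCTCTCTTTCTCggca
This last share depends on the annotated start being exact to the base. No window was found at the loci of Eif4ebp1, Eif2b3, Eef1d, Eef1g, Eif1a, Eif3e, Eif3h, Eif3i, Eif4e3, Eif4g2 and Eif6. The same held for Eif3j2, Eif4e1b, Eif4ebp3 and Eif2c1 to Eif2c4.

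**Figure D3:**
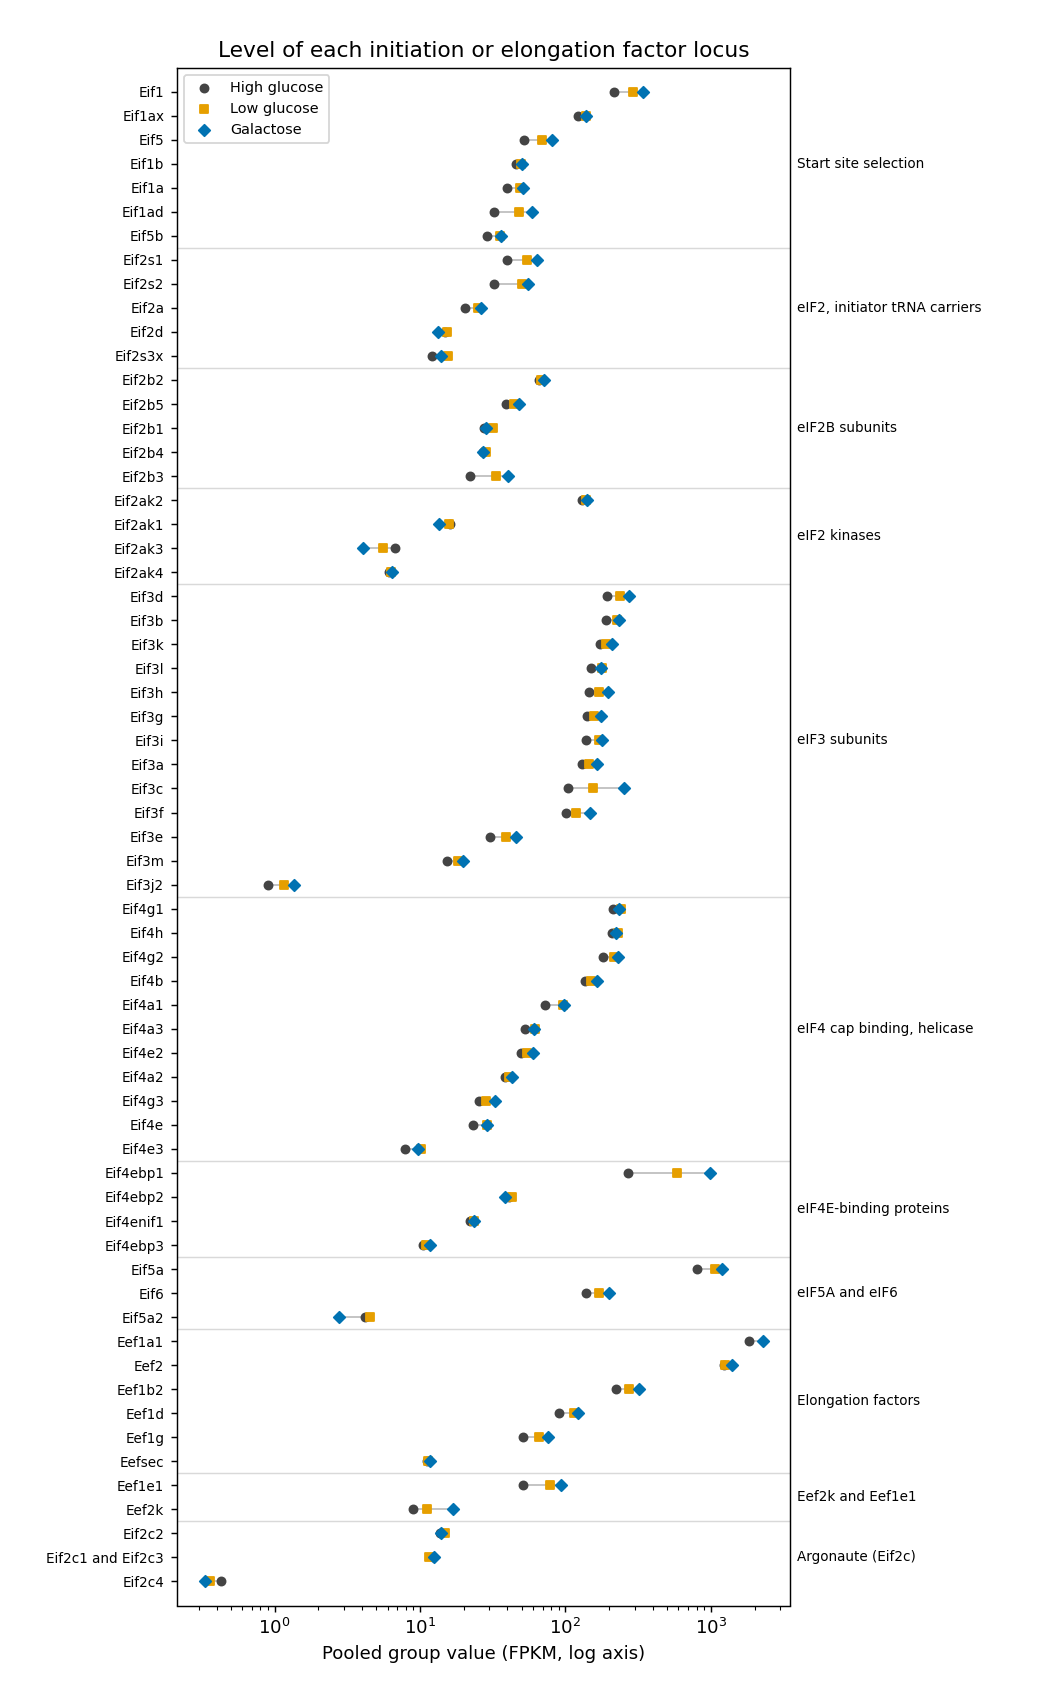
Pooled group value of each locus in FPKM (log axis) in high glucose, low glucose and galactose, grouped by role and sorted within a role by the high glucose value; a grey line joins the 3 values of a locus, Eef1a1 has no low glucose value, and Eef1a2, Eif2s3y and Eif4e1b, which were not tested, are left out. Eef1a1, Eef2 and Eif5a stand at the top, and the longest lines belong to Eif4ebp1 and Eif3c.

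Eif4ebp1, which encodes the eIF4E-binding protein that mTORC1 releases from eIF4E by phosphorylation, changed more than any other tested factor in each comparison. It was listed at 268 FPKM in high glucose, against 588 in low glucose and 987 in galactose, per the authors' deposited table. Its log2 fold changes were 1.13, 1.88 and 0.75 in the authors' deposited table, 2.19-fold, 3.68-fold and 1.68-fold. Set against the protein it binds, the ratio of Eif4ebp1 to Eif4e in FPKM was 11.6, 20.5 and 34.4 in the 3 media in turn. Its relative Eif4ebp2 was not called, at 41.0, 42.7 and 38.5 FPKM by the authors' deposited table, and the ratio of Eif4ebp1 to Eif4ebp2 went from 6.53 to 13.8 and 25.6. The locus of Eif4ebp1 lies on chromosome 8 from 27260327 to 27314804 (mm10), 54.5 kb where RefSeq gives the gene 15.3 kb, and overlaps no other coding gene of RefSeq. Eif4ebp3 shares a combined locus with Ankhd1, at 10.4, 11.0 and 11.6 FPKM, and Eif4enif1, whose product carries eIF4E into the nucleus, stood at 21.99, 23.4 and 23.7 FPKM; neither was called, per the authors' deposited table. With its 3 uncalled partners the list had a median of 0.13 in galactose, which turned to -0.04 on the equal-sum scale. A more abundant mRNA of the binding protein says nothing of its phosphorylation, which was not measured.

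**Figure D4:**
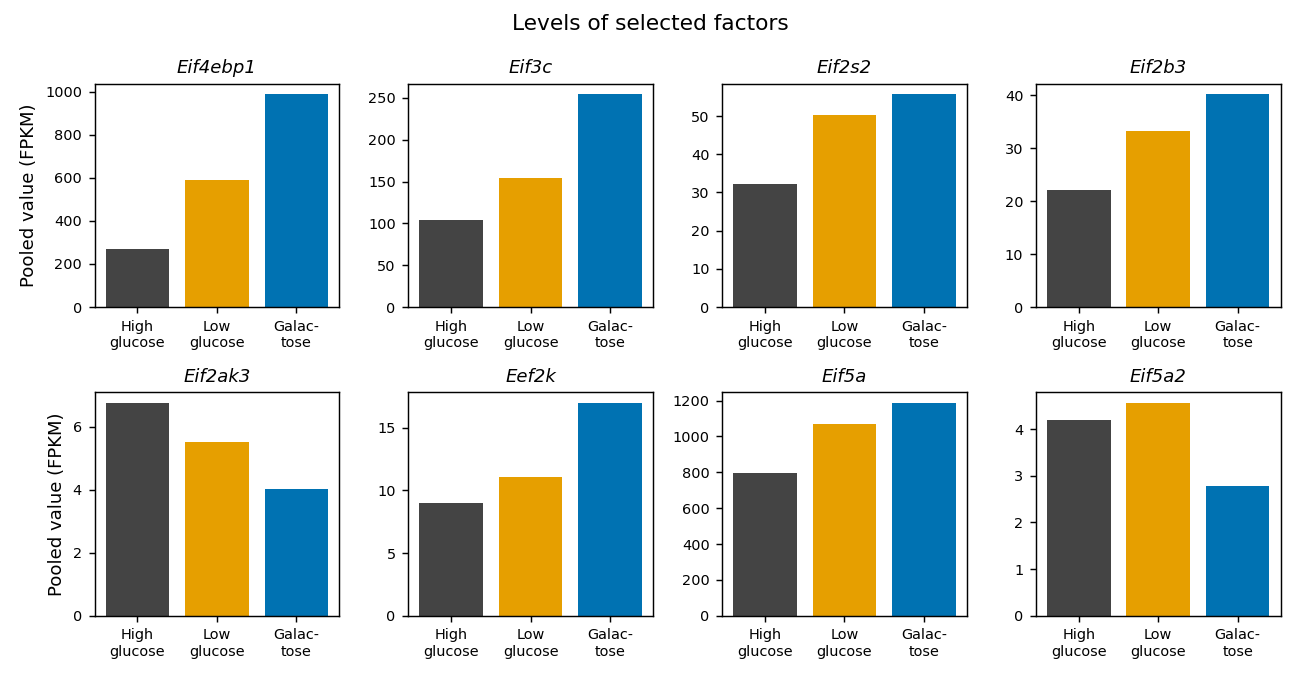
Pooled group values of 8 factors in FPKM (bars from 0, each panel with its own axis; no error bars, since the table has no value per library). Eif4ebp1 goes from 268 to 588 and 987 FPKM, whereas Eif2ak3 goes from 6.76 to 5.53 and 4.04 FPKM, and Eif5a2 is lowest in galactose while Eif5a is highest there.

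The eIF5A genes were called in opposite directions from high glucose to galactose. Eif5a, whose product carries the modified lysine hypusine and helps the ribosome past difficult stretches, rose from 799 FPKM in high glucose to 1070 and 1187 FPKM in the other media, with the step between the last pair not called (q = 0.0828), per the authors' deposited table. Eif5a2, the second gene, was not called in low glucose at 4.20 and 4.56 FPKM (q = 0.229) and fell to 2.78 FPKM in galactose in the authors' deposited table. Its log2 fold changes to galactose were -0.60 from high glucose and -0.71 from low glucose in the authors' deposited table. The ratio of Eif5a to Eif5a2 in FPKM therefore went from 190 and 234.5 to 427. The Eif5a locus is 20.1 kb long, against 5.2 kb in RefSeq, and also covers Gps2 and Neurl4. Eif6, which keeps the large ribosomal subunit from joining too early, stood at 139, 170 and 200 FPKM, and each step was called in the authors' deposited table.

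Among the elongation factors, Eef1a1 and 2 genes of its exchange factor rose, and Eef2 was called in galactose alone with a small fold change. Eef1a1 was the most abundant factor, at 1834 FPKM in high glucose and 2270 in galactose, a called log2 fold change of 0.31 in the authors' deposited table. In low glucose the tool found too many reads at this locus and lists it at 0; that is no measurement, and the locus enters no comparison with low glucose. RefSeq also holds pseudogenes of Eef1a1, whose reads cannot be told from its own here. Eef1b2, a subunit of its exchange factor, rose at every step, at 222, 272 and 323 FPKM by the authors' deposited table. Eef1d, another subunit, shares a locus with Naprt1 and was called in both media at 90.2, 115 and 122 FPKM by the authors' deposited table. Eef1g, the third subunit, had log2 fold changes as large, 0.38 and 0.58, and was not called (q = 0.516 and 0.276) in the authors' deposited table. Its locus is 370.4 kb long, 33.4 times the 11.1 kb that RefSeq gives the gene, and covers 27 other coding genes; their part in this value was not tested. Eef2 had q = 0.0388 in galactose against high glucose and q = 0.799 in low glucose, at 1229, 1254 and 1395 FPKM by the authors' deposited table, and its log2 fold change of 0.18 shrank to 0.01 on the equal-sum scale. Eefsec, the factor for selenocysteine, was not called at 11.1, 11.4 and 11.7 FPKM by the authors' deposited table. Eef1a2, the muscle form, was listed at 0 in both glucose media and at 0.00321 FPKM in galactose in the authors' deposited table, so no comparison could be made for it.

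Eef2k, whose kinase inhibits eEF2, rose at every step: 9.03 FPKM in high glucose, then 11.1 in low glucose and 16.96 in galactose, per the authors' deposited table. The step from low glucose to galactose, 0.61 on the log2 scale, was larger than that from high to low glucose, 0.30, in the authors' deposited table. The ratio of Eef2 to Eef2k in FPKM was 136, 113 and 82.2. Eef1e1, which despite its symbol encodes a part of the complex of aminoacyl-tRNA synthetases, was listed at 51.0, 78.8 and 93.3 FPKM, with each step called, in the authors' deposited table.

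The Argonaute genes taken by their older symbols were not called higher in any comparison. With 18.3%, 26.5% and 17.4% of all tested loci called higher, that is no result about these 3 loci. Eif2c2 stood at 13.7, 14.9 and 14.0 FPKM and the combined locus of Eif2c1 and Eif2c3 at 12.2, 11.5 and 12.4 FPKM, and neither was called in the authors' deposited table. Eif2c4, at 0.428, 0.359 and 0.331 FPKM, was called lower from high glucose to galactose (q = 0.0226) in the authors' deposited table, and is the only factor locus called below 1 FPKM. Without these 3 loci the higher calls are the same 38, 41 and 16, since none of these was called higher.

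Levels by medium can be put in one count. Of the 62 factor loci tested in every comparison, 46 had their highest value in galactose, 13 in low glucose and 3 in high glucose, and 55 had their lowest value in high glucose. The 3 highest in high glucose were Eif2ak1, Eif2ak3 and Eif2c4. Over all 14243 loci tested in every comparison, 40.2% were highest in galactose, 22.2% in low glucose and 37.5% in high glucose, and 41.1% were lowest in high glucose. Among those with at least 10 FPKM, 53 of 57 factor loci and 50.8% of all loci were lowest in high glucose. Many of these orders rest on differences that were not called, and no spread between libraries is known. They also hold for the deposited scale and were not counted on the equal-sum scale. There, 43 of 63 tested factor loci had a log2 fold change above 0 from high glucose to galactose. From low glucose to galactose it was 32 of 62.

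Genes that act on the factors were read from lists of related genes, whose counts stand beside 18.3% higher and 18.2% lower among all tested loci in low glucose, and 26.5% and 24.8% in galactose, each against high glucose. Of 12 genes of the eIF2 phosphorylation cycle and the ATF4 branch, 8 were called higher and 1 was called lower in low glucose than in high glucose, and 9 and 1 in galactose. Atf4, the transcription factor of this response, was listed at 294, 437 and 585 FPKM by the authors' deposited table. Ppp1r15a and Ppp1r15b, which bring a phosphatase to eIF2 and so undo the work of the kinases, differed at the last step. Ppp1r15a stood at 17.6, 24.2 and 48.7 FPKM, and Ppp1r15b at 26.8, 36.3 and 37.0 FPKM with q = 0.791 from low glucose to galactose, in the authors' deposited table. Ddit3, which encodes CHOP, stood at 48.2, 86.4 and 156 FPKM by the authors' deposited table.

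Of 17 genes of mTORC1 and its regulators, 5 were called higher and 4 were called lower in low glucose than in high glucose, and 6 and 4 in galactose. In 17 genes such counts are near the shares of all tested loci, 18.3% and 18.2% in low glucose and 26.5% and 24.8% in galactose. The list's log2 fold changes had medians of 0.01 and 0.06 that turned to -0.08 and -0.11 on the equal-sum scale. Mtor itself was not called, at 9.70, 10.4 and 9.95 FPKM by the authors' deposited table. Inhibitors of mTORC1 went both ways. Sesn2 stood at 8.55, 22.4 and 38.7 FPKM and Ddit4 at 29.2, 34.1 and 67.04 FPKM, called higher at every step in the authors' deposited table. Deptor stood at 14.3, 10.3 and 5.56 FPKM and Sesn1 at 8.42, 5.17 and 3.55 FPKM, called lower at every step in the authors' deposited table.

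Partners of the eIF4 group were called higher in 6 and lower in 2 of 13 cases in low glucose, and higher in 7 and lower in 2 in galactose, beside 18.3% and 18.2%, and 26.5% and 24.8%, of all tested loci. Pabpc1, the poly(A)-binding protein that contacts eIF4G, stood at 572, 717 and 859 FPKM, called at every step in the authors' deposited table. Pdcd4, which keeps eIF4A from eIF4G, stood at 6.07, 3.09 and 3.10 FPKM, and Mknk2, a kinase of eIF4E, at 52.9, 39.9 and 39.6 FPKM, both called lower in each medium than in high glucose in the authors' deposited table.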

How the data were processed

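PolyA RNA of 12 C2C12 libraries in 3 groups was measured by sequencing; groups follow the sample labels. The submitters' processing notes name mm10 as the build and list Cuffdiff without a version, Cufflinks 2.2.0 and TopHat2 2.0.10; settings and strand use are not given in the sources used here. Per the file headers, the authors deposited, for each locus and pair of groups, 2 pooled FPKM values, a log2 fold change without pseudocount, a test score, a p-value and a q-value. The deposited q-value was recomputed as a Benjamini-Hochberg adjustment over 44006 tests of the 3 comparisons together, and differed by at most 5.26e-07. No test was fitted here, since no value per library is given.

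Symbols were split on commas; 4 factor loci hold several symbols, and 1 symbol in several loci was read from that with the highest sum. Starts were raised by 1 to count from 1. Loci were set beside RefSeq genes of GRCm38.p6, the assembly of mm10. Every factor could be named; of each related list, up to 3 called genes with the largest fold change in a comparison, and 8 genes named in advance, Atf4, Ddit3, Ppp1r15a, Ppp1r15b, Mtor, Pdcd4, Pabpc1 and Odc1. The members, lists, ratios and motifs were chosen with earlier results of these data known. Alternatives were q below 0.01, a 2-fold change, minimum values of 1 and 10 FPKM, adjustment within a comparison, re-centring, a pseudocount of 1 FPKM, other choices of loci and equal FPKM sums. The adjustment and the motif search were tested on simulated data. Python 3.11.15, pandas 2.3.3, numpy 2.4.6 and matplotlib 3.10.9 were used.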

Additional observations from a re-analysis of the deposited data

How the results depend on the processing

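The 6 counts of called factors moved by more than 1.5 times under few settings. A minimum fold change of 2 left 1 of 38 higher calls in low glucose and 2 of 41 in galactose against high glucose, 0 of 16 from low glucose to galactose, and 0 of the lower calls in each comparison. A minimum of 10 FPKM, added after the data were seen, took the lower calls to 0, 0 and 1. A q below 0.01, 1 FPKM as minimum, adjustment within the comparison and leaving out combined, Argonaute or overlong loci kept each count within 1.5 times. Adjustment within the comparison lost 4 calls: Eif1ax, Eif3g and Eif4b from 38 higher calls in low glucose, leaving 35, and Eif2s3x from 3 lower calls between low glucose and galactose, leaving 2. Re-centring and equal FPKM sums shift every value by a constant and keep the deposited q, so their unchanged counts test nothing. Of 190 log2 fold changes, 1 changed sign on re-centring, that of Eif2b4 from high glucose to galactose (-0.0057), and none with a pseudocount. Of the 62 loci with a RefSeq length, 12 were over 2 times as long as the gene. They were Eef1g, Eif2b1, Eif2b4, Eif2d, Eif3i, Eif3m, Eif4a2, Eif4ebp1, Eif4ebp3, Eif4enif1, Eif5a and Eif5b. Their values may hold other transcripts, which was not tested. Of the 66 factor loci, 20 overlap a RefSeq coding gene of another symbol, the Argonaute genes under their newer symbols among them. Leaving out single libraries was not run, and depth cannot be judged. No paired analysis was possible because the table holds pooled group values only.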

Other observations

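Against high glucose, the shares of all tested loci called higher and lower were 18.3% and 18.2% for low glucose and 26.5% and 24.8% for galactose. Among 8 genes of termination, recycling and rescue, low glucose had 4 higher and 0 lower calls against high glucose, and galactose 5 higher and 1 lower, the latter Gtpbp1, in the authors' deposited table. Etf1, the release factor that reads stop codons, stood at 70.8, 97.1 and 106 FPKM in high glucose, low glucose and galactose, and Abce1, which splits the ribosome afterwards, at 59.9, 85.3 and 89.6 FPKM by the authors' deposited table. Gtpbp2, a partner in the rescue of stalled ribosomes, had its lowest value in low glucose, at 15.4, 12.96 and 23.6 FPKM, and only the steps to galactose were called in the authors' deposited table. Of 6 genes of hypusine synthesis and the polyamines it needs, 4 were called higher in low glucose and 5 in galactose, beside the same 18.3% and 26.5% of all loci. Odc1, the first enzyme of polyamine synthesis, stood at 20.2, 33.4 and 50.7 FPKM by the authors' deposited table. Dhps, which starts the hypusine on eIF5A, lies in a combined locus with BC056474 and Man2b1 at 131, 154 and 179 FPKM by the authors' deposited table.

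Factors of the mitochondrial ribosome were called higher in 2 of 10 cases in low glucose and 3 of 10 in galactose, near the 18.3% and 26.5% of all loci, and 0 were called lower in either, in the authors' deposited table. Their medians were 0.16 and 0.23 on the log2 scale. Guf1, an elongation factor of mitochondria, stood at 5.42, 6.61 and 8.42 FPKM, and Tsfm, the exchange factor of the mitochondrial tRNA carrier, at 42.2, 48.5 and 55.2 FPKM, both called at every step in the authors' deposited table. The difference between these lists and the cytosolic factors was not tested.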
